A study of Mus musculus with 18 samples.

Results

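The interleukin 12 family is built from 5 subunit genes, *Il12a*, *Il12b*, *Il23a*, *Il27* and *Ebi3*, and their transcripts were followed here in mouse peritoneal macrophages with and without the transcription factor ZEB1. Members were taken by gene symbol from the table of 55573 genes, all 5 were present, and all 5 were among the 13443 genes with enough counts to be tested. The 18 libraries were bulk RNA sequencing of C57BL/6 peritoneal lavage cells sorted on CD11b and F4/80, with 3 libraries per group and each library made from a pool of 2 to 3 mice. *Zeb1* WT mice were *Zeb1* fl/fl without Cre, and *Zeb1* ∆M mice were *Zeb1* fl/fl with a Cre knocked in at the lysozyme 2 gene (LysM-Cre), which acts in myeloid cells, so both genotypes carried the floxed allele. Both genotypes were studied in LPS (vehicle, then 1 dose of bacterial lipopolysaccharide), in LPS + LPS (2 doses a day apart, which leaves macrophages in an immunosuppressed state) and in Metformin + LPS (the biguanide drug Metformin before 1 dose). No library from untreated mice was used here, and the age of these mice was not given in the sources used here.

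Each family member is a heterodimer. Interleukin 12 pairs p35 (*Il12a*) with p40 (*Il12b*), interleukin 23 pairs p19 (*Il23a*) with the same p40, interleukin 27 pairs p28 (*Il27*) with EBI3, and interleukin 35 pairs p35 with EBI3. Macrophages and dendritic cells make interleukins 12, 23 and 27 after Toll-like receptor signals. Interleukin 12 drives T cells and natural killer cells to make interferon gamma, interleukin 23 sustains T cells that make interleukin 17, and interleukin 27 both supports early type 1 responses and restrains inflammation.

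*Zeb1* itself stood at 6.41, 6.69 and 7.21 CPM (counts divided by the library's total after TMM scaling and set to a common total) in *Zeb1* WT LPS and 2.3, 3.01 and 1.38 in *Zeb1* ∆M LPS, a log2 fold change of -1.60 (SE 0.36, edgeR adjusted p = 0.03). Adjusted p-values are from edgeR's quasi-likelihood test with Benjamini-Hochberg adjustment over the 13443 genes, a gene is called at an adjusted p under 0.05, and each p measures the spread between these pooled libraries. In Metformin + LPS the difference was -1.55 (SE 0.35, edgeR adjusted p = 0.012). In LPS + LPS the gene was low in both genotypes, at 0.912 to 2.52 CPM in *Zeb1* WT and 0.738 to 0.926 in *Zeb1* ∆M, and the difference of -0.88 (SE 0.37, edgeR adjusted p = 0.35) did not pass, nor did -1.13 without replicate 1 of *Zeb1* WT (edgeR adjusted p = 0.12). The table gives 1 count per gene, so RNA from outside the deleted stretch is part of these values. Totals ran from 14053706 to 30570439 counts per library. TMM factors, which correct for how the reads are spread over genes, ran from 0.867 to 1.06 in LPS and from 1.42 to 1.56 in LPS + LPS. With Metformin + LPS they ran from 0.445 to 0.708 for *Zeb1* WT and from 0.843 to 0.879 for *Zeb1* ∆M. Ribosomal RNA genes took 2.06 to 6.73% of counts in the Metformin + LPS libraries and 0.142 to 1.26% in the other groups. The Metformin + LPS libraries also carried another series of library codes, so treatment and code series cannot be told apart in comparisons of Metformin + LPS with LPS. Replicate 1 of *Zeb1* WT LPS + LPS had 989 CPM of neutrophil markers where the other libraries of its group had 3980 and 3210. It also had the highest *Irf1* and *Cd40* of its group, at 543 CPM against 121 and 123, and 139 against 57.6 and 67.6. In *Zeb1* WT LPS these genes were at 972 to 1520 and 470 to 596 CPM. Fold changes and calls of members and listed genes that rest on that group are given with and without it. All 6 macrophage markers were above 0 in every library, whereas T and NK cell markers summed to at most 1.34 CPM and mesothelial markers to at most 1.57. In sorted bulk cells, fewer cells of a type and less RNA per cell cannot be told apart. Overlap of library ranges is given below as description, and how many of all genes lay without overlap was not counted.

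The 5 genes lie on 5 chromosomes of the mouse build GRCm38, each as a protein-coding gene. *Il12a* (ENSMUSG00000027776.12) is at chr3:68690644-68698547 on the plus strand and *Il12b* (ENSMUSG00000004296.14) at chr11:44400063-44414033 on the plus strand, each with 8 exons in its longest transcript. *Il23a* (ENSMUSG00000025383.2) is at chr10:128296139-128298752 on the minus strand with 3 exons. *Il27* (ENSMUSG00000044701.5) is at chr7:126589010-126594941 on the minus strand and *Ebi3* (ENSMUSG00000003206.7) at chr17:55952640-55957022 on the plus strand, each with 5 exons. Genes on the opposite strand shared 103 exonic bases with *Il27* (*Apobr*) and 270 with *Ebi3* (the antisense gene *Gm16712*, at 4.53 to 11.1 CPM over the libraries). *Apobr* was at 12.3 to 89.4 CPM over the libraries, while *Il27* was at 11.4 to 26.5 CPM in LPS + LPS. The kit marks strand, but whether the counting used it was not given in the sources used here.

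ZEB1 binds E-boxes of the form CACCTG, and LPS signals reach cytokine promoters through NF-kappaB, AP-1 and interferon regulatory factors, so the promoter windows of the members are shown with those letters marked. RefSeq (GRCm38.p6) gave windows of 300 bases, 250 before and 50 from the start site, for 3 of the 5 members. *Il23a* and *Il27* were not matched. Capitals mark any match on either strand to CACCTG, its core CACCT, the NF-kappaB consensus, the IRF core GAAANNGAA, the AP-1 site TGANTCA or TATAAA.
Il12a, chr3:68690394-68690693, plus strand: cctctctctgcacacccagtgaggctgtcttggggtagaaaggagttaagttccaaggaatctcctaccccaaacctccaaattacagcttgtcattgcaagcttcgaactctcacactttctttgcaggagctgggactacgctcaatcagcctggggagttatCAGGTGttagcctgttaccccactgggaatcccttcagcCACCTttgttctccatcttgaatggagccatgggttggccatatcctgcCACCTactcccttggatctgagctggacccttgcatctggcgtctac
Il12b, chr11:44399813-44400112, plus strand: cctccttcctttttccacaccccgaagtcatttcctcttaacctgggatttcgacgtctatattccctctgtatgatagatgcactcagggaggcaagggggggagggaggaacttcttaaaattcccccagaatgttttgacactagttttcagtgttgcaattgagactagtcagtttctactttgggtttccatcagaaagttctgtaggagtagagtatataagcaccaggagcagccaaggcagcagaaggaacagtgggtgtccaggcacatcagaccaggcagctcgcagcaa
Ebi3, chr17:55952373-55952672, plus strand: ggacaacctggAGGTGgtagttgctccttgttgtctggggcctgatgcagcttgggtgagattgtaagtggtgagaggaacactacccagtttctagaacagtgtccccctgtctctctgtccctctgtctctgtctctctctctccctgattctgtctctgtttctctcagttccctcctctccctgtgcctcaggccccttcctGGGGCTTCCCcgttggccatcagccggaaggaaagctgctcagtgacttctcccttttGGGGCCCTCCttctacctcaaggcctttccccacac
The *Il12a* window held 1 CACCTG, at bases 166 to 171 on the opposite strand and overlapping a CACCT core, and cores at bases 205 to 209 and 254 to 258. The *Ebi3* window held a CACCT core at bases 12 to 16 and 2 matches to the NF-kappaB consensus, at bases 207 to 216 and 265 to 274. None of the 6 motifs was found in the *Il12b* window, nor in another *Il12a* window starting at 68691174. Of all 32851 windows in the table, 20.2% held CACCTG, 51.9% CACCT, 8.46% the NF-kappaB consensus, 8.56% the IRF core, 7.81% the AP-1 site and 13.6% TATAAA. A match describes letters only, and its absence from a window of this size says nothing about binding.

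Per kb of transcript, *Ebi3* and *Il27* were the abundant members and *Il23a* was near the limit of detection. Mean levels per kb were 94 to 226 CPM for *Ebi3*, 15 to 253 for *Il27*, 2.46 to 14.6 for *Il12b*, 0.894 to 12.6 for *Il12a* and 0.0629 to 0.628 for *Il23a* over the 6 groups. The members also differed in how far they varied. Around its own mean over the 18 libraries, *Il27* varied by a root mean square of 1.73 on the log2 scale, *Il12a* by 1.36, *Il23a* by 1.3, *Il12b* by 1.04 and *Ebi3* by 0.444.

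**Figure D1:**
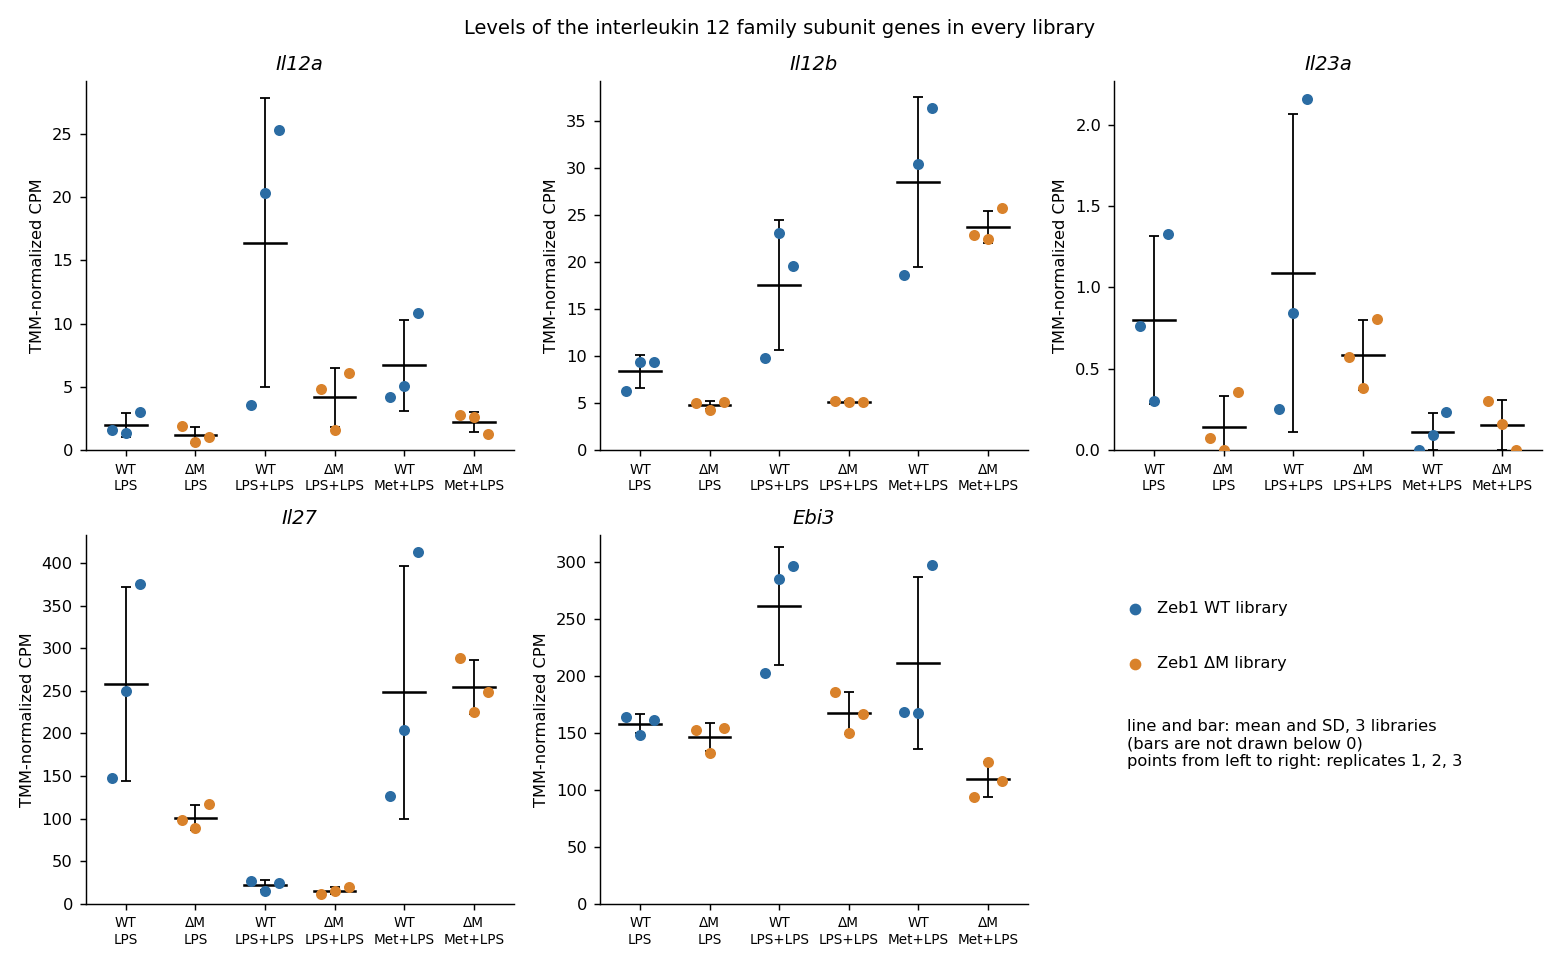
Levels of the 5 subunit genes in TMM-normalized CPM (y axes, linear from 0) in the 6 groups (x axes). Points are libraries, blue for *Zeb1* WT and orange for *Zeb1* ∆M, and lines and bars are the mean and SD of 3 libraries. *Il27* sat at 11.4 to 26.5 CPM in LPS + LPS and at 88.6 to 413 in the other 4 groups, while *Il12a* and *Il12b* were highest in *Zeb1* WT LPS + LPS and in Metformin + LPS respectively.

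*Il12a*, which encodes the p35 chain, had its highest group mean in *Zeb1* WT LPS + LPS, at 16.4 ± 11.4 CPM (SD, n = 3). The libraries there held 3.54, 20.3 and 25.3 CPM, so replicate 1 stood below the other two and inside the range of *Zeb1* ∆M LPS + LPS. *Zeb1* WT Metformin + LPS followed with 4.19, 5.04 and 10.8 CPM. Next came *Zeb1* ∆M LPS + LPS with 4.83, 1.56 and 6.11 CPM, a range that overlapped the one above. The remaining groups lay close together, at 2.74, 2.58 and 1.27 CPM in *Zeb1* ∆M Metformin + LPS, 1.57, 1.32 and 3.03 in *Zeb1* WT LPS, and 1.86, 0.612 and 1.02 in *Zeb1* ∆M LPS. Neighbouring groups in this order overlapped throughout.

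*Il12b* encodes p40, the chain that interleukins 12 and 23 share, and its order differed from that of *Il12a*. Both Metformin + LPS groups stood at the top, with 18.6, 30.4 and 36.4 CPM in *Zeb1* WT and 22.9, 22.4 and 25.7 in *Zeb1* ∆M. *Zeb1* WT LPS + LPS held 9.77, 23.1 and 19.6 CPM, overlapping both. *Zeb1* WT LPS followed at 6.32, 9.33 and 9.39 CPM, below every *Zeb1* WT LPS + LPS library. *Zeb1* ∆M LPS + LPS at 5.2, 5.14 and 5.11 CPM and *Zeb1* ∆M LPS at 4.98, 4.28 and 5.1 CPM were lowest and lay next to each other without overlapping.

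*Il23a*, the p19 chain of interleukin 23, was counted 0 to 69 times per library, so its levels carry little precision. The *Zeb1* WT LPS libraries held 17, 6 and 22 counts (0.762, 0.304 and 1.33 CPM) and the *Zeb1* ∆M LPS libraries 1, 0 and 7. In LPS + LPS there were 7, 22 and 69 counts in *Zeb1* WT and 17, 9 and 17 in *Zeb1* ∆M. In Metformin + LPS there were 0, 2 and 3 counts in *Zeb1* WT and 6, 3 and 0 in *Zeb1* ∆M. Its log2 fold changes had SEs of 1.01 to 1.31 in the 7 comparisons between groups, wider than those of the other members.

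*Il27*, the p28 chain, was lowest in LPS + LPS, with 26.5, 15.4 and 24 CPM in *Zeb1* WT and 11.4, 14.7 and 19.9 in *Zeb1* ∆M, ranges that overlapped. *Zeb1* ∆M LPS stood apart from all other groups at 98.8, 88.6 and 117 CPM. The other three groups overlapped each other, with *Zeb1* WT LPS at 148, 250 and 375 CPM, *Zeb1* WT Metformin + LPS at 127, 204 and 413, and *Zeb1* ∆M Metformin + LPS at 288, 225 and 249. Spread was far wider in the *Zeb1* WT groups (SD 114 and 148 CPM) than in the *Zeb1* ∆M groups under the same treatments (SD 14.3 and 31.8 CPM).

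*Ebi3*, the chain that pairs with p28 or p35, moved least. *Zeb1* WT LPS + LPS held 202, 285 and 296 CPM, *Zeb1* WT Metformin + LPS 168, 167 and 297, and *Zeb1* ∆M LPS + LPS 186, 150 and 166. With LPS alone *Zeb1* WT held 164, 148 and 161 CPM and *Zeb1* ∆M 152, 132 and 154, and these ranges overlapped each other and *Zeb1* ∆M LPS + LPS. *Zeb1* ∆M Metformin + LPS was lowest at 93.6, 124 and 108 CPM, below every other library.

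The first question was whether loss of ZEB1 altered the subunit transcripts in acute inflammation. In LPS the values of all 5 members were lower in *Zeb1* ∆M on average, but no member passed the test in the fit over all 18 libraries. Of the 13443 genes, 0.208% were called higher and 0.937% lower at an adjusted p under 0.05. *Il27* had a log2 fold change of -1.35 (SE 0.37, 95% interval -2.12 to -0.57, edgeR adjusted p = 0.087), and each *Zeb1* ∆M library lay below each *Zeb1* WT library. DESeq2 called it (-1.39, DESeq2 adjusted p = 0.011), as did edgeR with no count filter (adjusted p = 1.1e-06), and no other alternative tried did. These settings called more genes in general. DESeq2 called 107 higher and 398 lower, and no count filter 274 and 464, against 28 and 126 in the fit above. *Il12b* had -0.80 (SE 0.29, edgeR adjusted p = 0.22), again without overlap between the genotypes. *Il12a* stood at -0.78 (SE 0.68, edgeR adjusted p = 0.67) with overlapping ranges. For *Il23a* the value was -2.38 with an SE of 1.15, and the interval of -4.81 to 0.04 spanned almost 5 log2 units. *Ebi3* was at -0.11 (SE 0.21, 95% interval -0.56 to 0.33, edgeR adjusted p = 0.87). Markers of other cells moved in the same comparison, with 3 of 7 tested B cell markers lower (median -2.41), 4 of 11 neutrophil markers lower (median -2.61) and 1 of 4 eosinophil markers lower (median -2.15). Small peritoneal macrophage and monocyte markers were lower in 2 of 8 (median -0.81), with sums of 4940 to 5810 CPM in *Zeb1* WT LPS against 2290 to 4330 in *Zeb1* ∆M LPS. Of 7 tested dendritic cell markers, 1 was higher and 1 lower (median -0.51), against a median of 0.01 over all genes. The 8 B cell markers summed to 126 to 183 CPM in *Zeb1* WT LPS and 25.5 to 38.5 in *Zeb1* ∆M LPS, with at most 2 of them at 0 in a library. Their part in the subunit values was not tested.

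In LPS + LPS, *Il12b* fell with loss of ZEB1, and it was the 1 of 5 members called. All genes tested gave 0.216% called lower and 0.461% called higher. The *Il12b* difference was -1.76 on the log2 scale (SE 0.29, 95% interval -2.37 to -1.15, edgeR adjusted p = 0.0069), a 3.39-fold lower level, and the *Zeb1* ∆M libraries at 5.11 to 5.2 CPM all lay below the lowest *Zeb1* WT library at 9.77. *Il12a* pointed the same way at -1.98 (SE 0.62, edgeR adjusted p = 0.17) with overlapping libraries. *Ebi3* had -0.64 (SE 0.21, edgeR adjusted p = 0.21) with no overlap, *Il23a* -0.90 (SE 1.01, edgeR adjusted p = 0.82) and *Il27* -0.52 (SE 0.37, edgeR adjusted p = 0.65). When replicate 1 of the *Zeb1* WT group was left out, *Il12b* was at -2.04 (edgeR adjusted p = 0.00058), *Il12a* was called too at -2.45 (edgeR adjusted p = 0.02), and *Ebi3* was at -0.79 (edgeR adjusted p = 0.062), *Il23a* at -1.35 and *Il27* at -0.36. That fit called more genes in general, 205 higher and 192 lower of 13947, against 62 and 29 with all libraries. With only these groups in the fit, no gene of the table was called and *Il12b* had an edgeR adjusted p = 0.15.

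Neutrophil markers and *Il12a* lay in nearly the same order over these 6 libraries. In other treatments, *Zeb1* WT Metformin + LPS had 507 to 592 CPM of the markers and 4.19 to 10.8 CPM of *Il12a*, and *Zeb1* WT LPS 745 to 1070 and 1.32 to 3.03. Between treatments the sum cannot be read as neutrophil content. It was still 423 CPM in replicate 1 of *Zeb1* ∆M Metformin + LPS, where 7 of 11 markers were at 0. The 11 markers summed to 989, 3980 and 3210 CPM in *Zeb1* WT LPS + LPS and to 1190, 849 and 1540 in *Zeb1* ∆M. The *Zeb1* WT libraries with 20.3 and 25.3 CPM of *Il12a* were the ones above 3000 CPM of neutrophil markers. *Zeb1* WT replicate 1, at 989 CPM of those markers, held 3.54 CPM of *Il12a*, within the *Zeb1* ∆M range. That library also differed from its group in *Irf1* and *Cd40*, as given above. Within *Zeb1* WT LPS + LPS, *Il12b* lay in the same order as the markers, at 9.77, 23.1 and 19.6 CPM. The 9.77 CPM of replicate 1 was above the *Zeb1* ∆M libraries, of which 2 of 3 had more neutrophil marker RNA. The markers were all above 0 in every LPS + LPS library and 0 of 11 passed between genotypes (median -1.66). Without replicate 1 of *Zeb1* WT, where *Il12a* was called, 4 of 11 neutrophil markers (median -2.02) and 4 of 4 eosinophil markers (median -4.02) were called lower as well. Over all genes that fit called 205 higher and 192 lower of 13947, against 62 and 29 with all libraries. Large peritoneal macrophage markers moved as well, with 5 of 8 higher in *Zeb1* ∆M (median 1.74, and 6 of 8 without that replicate), from sums of 570 to 731 CPM in *Zeb1* WT to 1870 to 2720 in *Zeb1* ∆M. The part of either marker group in the subunit differences was not tested.

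**Figure D2:**
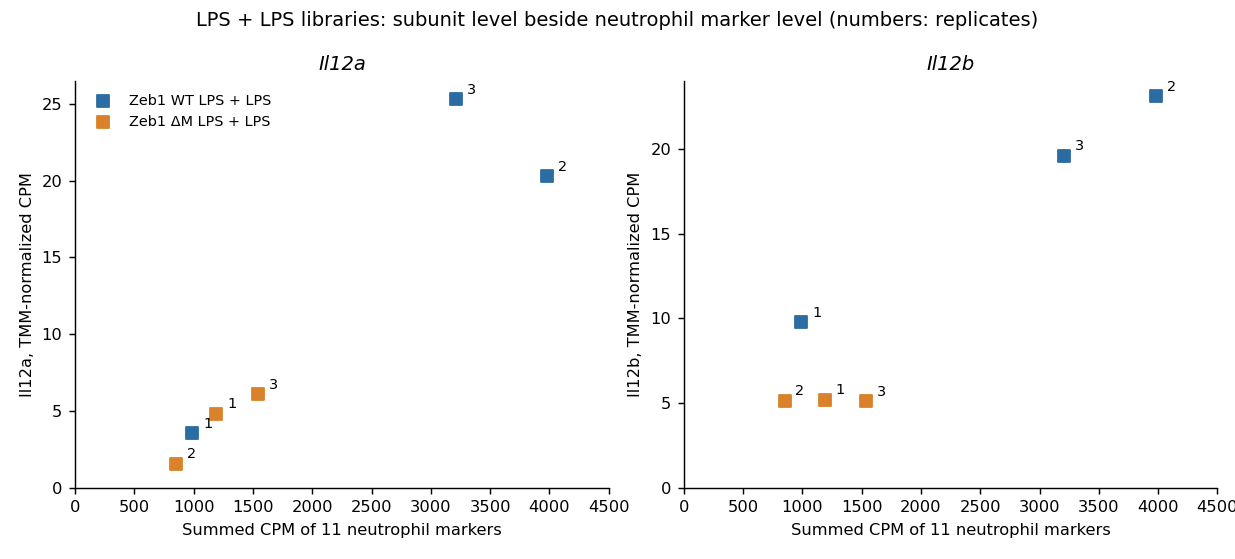
*Il12a* (left) and *Il12b* (right) in TMM-normalized CPM (y axes) against the summed CPM of 11 neutrophil markers (x axes) in the 6 LPS + LPS libraries, blue for *Zeb1* WT and orange for *Zeb1* ∆M, with replicate numbers beside the points. The library with 989 CPM of neutrophil markers in *Zeb1* WT lies among the *Zeb1* ∆M libraries for *Il12a* and above them for *Il12b*.

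In Metformin + LPS, *Ebi3* was the 1 member called lower in *Zeb1* ∆M, where 4.61% of all genes were called lower and 1.26% higher. Its log2 fold change was -0.96 (SE 0.22, 95% interval -1.41 to -0.50, edgeR adjusted p = 0.013), a 1.94-fold lower level, and the libraries did not overlap. That call depended on how libraries were scaled. With library totals alone, a setting added after the data were seen because the TMM factors of these groups differ, the *Ebi3* value was -0.31 (edgeR adjusted p = 0.24) while the median of all genes moved from 0.03 to 0.60. It was also lost without replicate 3 of *Zeb1* WT (-0.64, edgeR adjusted p = 0.072) and without replicate 1 of *Zeb1* ∆M (-0.88, edgeR adjusted p = 0.074). *Il12a* had -1.60 (SE 0.64, edgeR adjusted p = 0.15), with every *Zeb1* ∆M library at or below 2.74 CPM and every *Zeb1* WT library at or above 4.19. *Il12b* at -0.27 (SE 0.28), *Il27* at 0.04 (SE 0.36) and *Il23a* at 0.44 (SE 1.31) did not pass (edgeR adjusted p = 0.64, 0.97 and 0.89), and under library totals *Il12b* was at 0.33. The interval of *Il27* ran from -0.72 to 0.79. Neutrophil markers were lower in 7 of 11 (median -3.48), small peritoneal macrophage and monocyte markers in 5 of 8 (median -1.77) and B cell markers in 4 of 7 (median -2.07). Those 8 small macrophage and monocyte markers summed to 5710 to 22300 CPM in *Zeb1* WT and 2350 to 4550 in *Zeb1* ∆M, and their part in the *Ebi3* value was not tested.

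**Figure D3:**
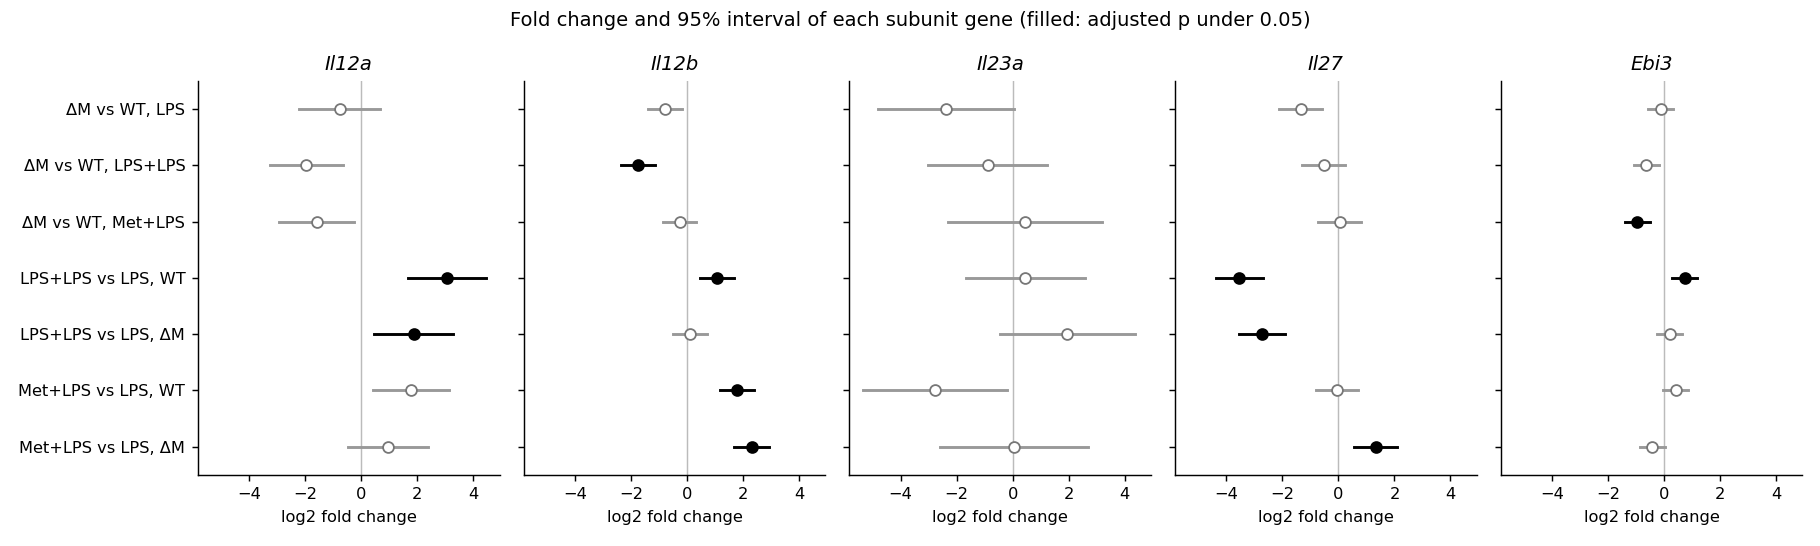
Log2 fold change (x axes) of each subunit gene in the 7 comparisons between groups (rows), with its 95% interval from the edgeR fit over 18 libraries. Filled points passed an adjusted p of 0.05. The *Il27* falls in LPS + LPS (-3.55 in *Zeb1* WT and -2.73 in *Zeb1* ∆M) and the *Il12a* rise in *Zeb1* WT (3.06) lie farthest from 0 among the called values, and the *Il23a* intervals are the widest.

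The next question was how a prior LPS dose altered the family. In *Zeb1* WT macrophages, 3 members rose and 1 fell from LPS to LPS + LPS, beside 18.6% of all genes called higher and 18% called lower. *Il27* fell by 3.55 on the log2 scale (SE 0.40, 95% interval -4.39 to -2.71, edgeR adjusted p = 1.7e-06), an 11.7-fold lower level. *Il12a* rose by 3.06 (SE 0.66, 95% interval 1.67 to 4.45, edgeR adjusted p = 0.0014), 8.35-fold. *Il12b* rose by 1.07 (SE 0.28, edgeR adjusted p = 0.0064) and *Ebi3* by 0.73 (SE 0.21, edgeR adjusted p = 0.013). For *Il23a* the value was 0.45 (SE 1.01, edgeR adjusted p = 0.76). For the 4 called genes no LPS + LPS library overlapped an LPS library. Such separation may be common here, as 45.2% of all genes had an unadjusted edgeR p under 0.05. Without replicate 1 of *Zeb1* WT LPS + LPS the 4 calls held, at -3.71 for *Il27*, 3.54 for *Il12a*, 1.35 for *Il12b* and 0.88 for *Ebi3*, while *Il23a* at 0.91 did not pass, and *Il12b* was not called with only these groups in the fit (1.04, edgeR adjusted p = 0.052).

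In *Zeb1* ∆M macrophages the same step gave 1 member higher and 1 lower, with 15.8% of all genes called higher and 16.9% lower. *Il27* fell by 2.73 (SE 0.39, 95% interval -3.54 to -1.92, edgeR adjusted p = 3e-05), from 88.6 to 117 CPM in LPS to 11.4 to 19.9 in LPS + LPS. *Il12a* rose by 1.87 (SE 0.67, edgeR adjusted p = 0.04) with overlapping libraries, and the call was lost without replicate 2 or 3 of *Zeb1* ∆M LPS or replicate 1 or 3 of *Zeb1* ∆M LPS + LPS (edgeR adjusted p from 0.097 to 0.14). *Il12b* was at 0.11 (SE 0.29, 95% interval -0.51 to 0.72, edgeR adjusted p = 0.82), *Ebi3* at 0.20 (SE 0.21, edgeR adjusted p = 0.52) and *Il23a* at 1.94 (SE 1.15, edgeR adjusted p = 0.21). The cells themselves changed in marker make-up over this step. Large peritoneal macrophage markers fell in 7 of 8 in each genotype (medians -3.44 and -1.63), from sums of 8340 to 10500 CPM in *Zeb1* WT LPS and 12100 to 12900 in *Zeb1* ∆M LPS. Neutrophil markers rose in 5 of 11 in *Zeb1* WT and rose in 6 and fell in 1 of 11 in *Zeb1* ∆M, and dendritic cell markers fell in 3 of 7 in each. Without replicate 1 of *Zeb1* WT LPS + LPS, large peritoneal macrophage markers fell in 8 of 8 in *Zeb1* WT (median -3.51). Neutrophil markers there again rose in 5 of 11, and dendritic cell markers fell in 3 of 7. Their part in the subunit changes was not tested.

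The genotypes were then compared in this response through the interaction, which asks whether the genotype difference in LPS + LPS departs from that in LPS. No member was called, and neither was any of the 13443 genes (0%) by edgeR, although 939 genes had an unadjusted p under 0.05 and DESeq2 called 72 higher and 2 lower. *Il12b* had -0.96 (SE 0.41, unadjusted p = 0.029, edgeR adjusted p = 0.66), *Il12a* -1.19 (SE 0.92, edgeR adjusted p = 0.87), *Il27* 0.82 (SE 0.52, edgeR adjusted p = 0.83) and *Ebi3* -0.53 (SE 0.30, edgeR adjusted p = 0.82). *Il23a* was at 1.49 (SE 1.51, edgeR adjusted p = 0.92). Leaving out replicate 1 of *Zeb1* WT LPS + LPS gave -1.24 for *Il12b*, -1.67 for *Il12a*, 0.98 for *Il27*, -0.68 for *Ebi3* and 1.03 for *Il23a*, and none of them passed (edgeR adjusted p from 0.21 to 0.89). Of 13947 genes, that fit called 8 higher and 1 lower. The rise of *Il12b* and *Ebi3* in *Zeb1* WT is therefore not shown to differ from the values in *Zeb1* ∆M.

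The third question was what Metformin before LPS did to these genes. *Il12b* rose in both genotypes. In *Zeb1* WT it rose by 1.77 (SE 0.29, 95% interval 1.17 to 2.38, edgeR adjusted p = 3e-04) and it was the 1 member called, with 13% of all genes called higher and 12.3% lower. *Il12a* had the same value of 1.77 with a larger SE of 0.65 and did not pass (edgeR adjusted p = 0.053), though no library overlapped, and it passed with median-of-ratios factors (edgeR adjusted p = 0.049) and by DESeq2 (adjusted p = 0.019). *Il27* at -0.06 (SE 0.36, 95% interval -0.81 to 0.70, edgeR adjusted p = 0.93) and *Ebi3* at 0.42 (SE 0.21, edgeR adjusted p = 0.17) did not pass, and *Il23a* was at -2.78 (SE 1.22, edgeR adjusted p = 0.1) on 5 counts in all in *Zeb1* WT Metformin + LPS. With library totals alone, where the median of all genes was -0.74 in place of -0.03, *Ebi3* turned to -0.37, *Il27* was called lower at -0.85 (edgeR adjusted p = 0.04) and *Il12b* remained higher at 1.05 (edgeR adjusted p = 0.011).

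In *Zeb1* ∆M, Metformin + LPS against LPS gave 2 members higher, beside 12.6% of all genes called higher and 13.6% lower. *Il12b* rose by 2.31 (SE 0.30, 95% interval 1.68 to 2.93, edgeR adjusted p = 6.7e-05), 4.95-fold. *Il27* rose by 1.33 (SE 0.37, 95% interval 0.55 to 2.10, edgeR adjusted p = 0.013), from 88.6 to 117 CPM to 225 to 288 CPM without overlap. Both stayed higher with library totals alone (2.09 and 1.10). *Il12a* at 0.95 (SE 0.68, edgeR adjusted p = 0.32) and *Il23a* at 0.05 (SE 1.26, edgeR adjusted p = 0.99) did not pass, nor did *Ebi3* at -0.43 (SE 0.21, edgeR adjusted p = 0.15). Macrophage markers rose in 5 of 6 in *Zeb1* WT, and rose in 4 and fell in 1 of 6 in *Zeb1* ∆M over this step, whereas neutrophil markers fell in 7 and 8 of 11. Small peritoneal macrophage and monocyte markers rose in 4 of 8 for *Zeb1* WT (median 1.27) and in 2 of 8 for *Zeb1* ∆M (median 0.40). Dendritic cell markers fell in 3 of 7 and B cell markers in 4 of 7 in each genotype. With the ribosomal RNA share and the library codes, these moved together with treatment, and their part was not tested.

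In the interaction of genotype with Metformin, 0.156% of all genes were called in either direction and no member was. *Il27* had 1.38 (SE 0.51, unadjusted p = 0.015, edgeR adjusted p = 0.25) and *Ebi3* -0.84 (SE 0.30, unadjusted p = 0.012, edgeR adjusted p = 0.24), so the p28 and EBI3 chains pointed in opposite directions. *Il27* passed with no count filter (1.41, edgeR adjusted p = 0.0017) and with library totals alone (1.95, edgeR adjusted p = 0.043). Those settings called 198 genes higher and 403 lower, and 120 and 11, against 11 and 10 with TMM factors and the filter. *Il12b* was at 0.53 (SE 0.40, edgeR adjusted p = 0.6), *Il12a* at -0.82 (SE 0.93, edgeR adjusted p = 0.76) and *Il23a* at 2.83 (SE 1.75, edgeR adjusted p = 0.51).

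Because the cytokines are heterodimers, the transcripts of partner chains were set against each other per kb of transcript within each library, a ratio that does not depend on library scaling. The ratio of *Ebi3* to *Il27*, the chains of interleukin 27, was 0.985, 0.524 and 0.379 in *Zeb1* WT LPS and 1.36, 1.31 and 1.17 in *Zeb1* ∆M LPS. In LPS + LPS it was 6.73, 16.3 and 10.9 in *Zeb1* WT and 14.5, 9.03 and 7.37 in *Zeb1* ∆M, so *Ebi3* exceeded *Il27* in all 6 libraries. In Metformin + LPS it was 1.17, 0.723 and 0.637 in *Zeb1* WT and 0.287, 0.485 and 0.385 in *Zeb1* ∆M. The genotypes did not overlap in LPS, where *Zeb1* ∆M was higher, nor in Metformin + LPS, where *Zeb1* ∆M was lower, and they overlapped in LPS + LPS. These ratios are given without a test.

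For interleukin 12, *Il12b* exceeded *Il12a* per kb in every LPS and Metformin + LPS library. With LPS the ratio was 2.7, 4.74 and 2.08 for *Zeb1* WT and 1.8, 4.69 and 3.35 for *Zeb1* ∆M. With Metformin + LPS the ratio was 2.99, 4.04 and 2.25 for *Zeb1* WT and 5.61, 5.83 and 13.5 for *Zeb1* ∆M, where all 3 values lay above those of *Zeb1* WT. In LPS + LPS it was 1.85, 0.762 and 0.518 in *Zeb1* WT and 0.721, 2.21 and 0.561 in *Zeb1* ∆M, so p35 transcripts exceeded p40 transcripts in 4 of 6 libraries. *Ebi3* exceeded *Il12a*, its partner in interleukin 35, by 13.2 to 243 times per kb in all libraries.

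**Figure D4:**
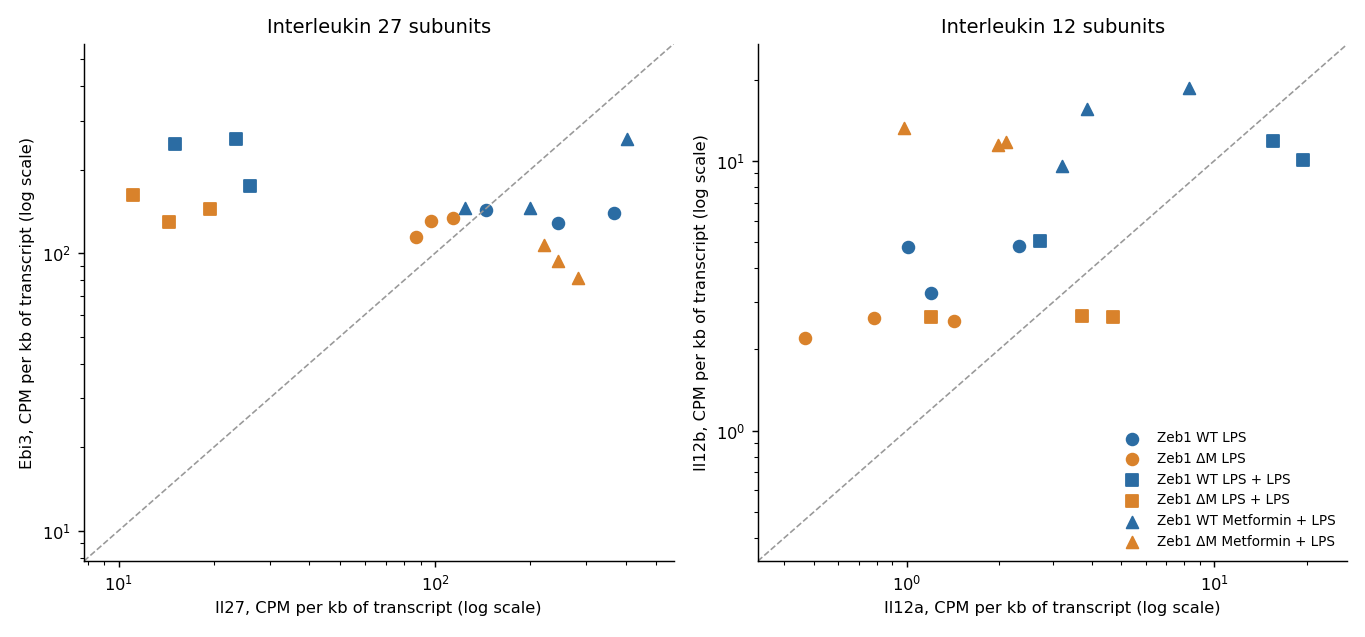
*Ebi3* against *Il27* (left) and *Il12b* against *Il12a* (right) in CPM per kb of transcript on log axes, 1 point per library, blue for *Zeb1* WT and orange for *Zeb1* ∆M, with circles for LPS, squares for LPS + LPS and triangles for Metformin + LPS. The dashed line marks equal levels. The 6 LPS + LPS libraries lie far above it on the left, and 4 of them lie below it on the right.

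The receptor chains for these cytokines were measured in the same cells. *Il12rb2*, the signalling chain of the interleukin 12 receptor, fell from LPS to LPS + LPS in both genotypes, with -2.42 for *Zeb1* WT (SE 0.55) and -4.51 for *Zeb1* ∆M (SE 0.64), at an edgeR adjusted p = 0.0021 and 2.8e-05. The size of the *Zeb1* ∆M value carries little precision, with 8 to 19 counts per LPS + LPS library and 3.72 to 21.3 CPM in LPS. *Il6st*, which encodes gp130 and pairs with the interleukin 27 receptor alpha chain, fell over this step for *Zeb1* WT, with -1.26 (SE 0.20, edgeR adjusted p = 9.1e-05). In LPS + LPS it was higher in *Zeb1* ∆M by 0.93 (SE 0.20, edgeR adjusted p = 0.037). *Il27ra*, that alpha chain, was higher in *Zeb1* ∆M in Metformin + LPS by 1.16 (SE 0.25, edgeR adjusted p = 0.01), at 16.1 to 23.4 CPM against 6.28 to 12.5. *Il12rb1*, the chain shared by the receptors for interleukins 12 and 23, was low at 0.153 to 1.78 CPM and passed in none of the 7 comparisons between groups. *Il23r* was counted 0 to 28 times and was not tested. In LPS, 0 of 4 tested receptor genes passed between genotypes, where 0.208% of all genes were called higher and 0.937% lower. In *Zeb1* WT, 1 of 4 was called lower in Metformin + LPS against LPS, beside 12.3% of all genes. When replicate 1 of *Zeb1* WT LPS + LPS was left out, *Il12rb2* was at -2.26 and *Il6st* at -1.42 over the step to LPS + LPS, both still called, and between genotypes *Il6st* was at 1.10 and *Il12rb2* was called lower at -2.65 (edgeR adjusted p = 0.036, against -2.49 and 0.074 with all libraries).

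Downstream genes moved most in LPS + LPS against LPS, where 18% of all genes were called lower in *Zeb1* WT and 16.9% in *Zeb1* ∆M. Of the 6 JAK and STAT genes that carry these signals, 5 fell in *Zeb1* WT and 5 in *Zeb1* ∆M, led in *Zeb1* WT by *Stat4* at -2.90 (SE 0.27, edgeR adjusted p = 2.1e-07), the main transducer of interleukin 12. Of 10 tested genes that the family induces or that act beside it, 9 fell in each genotype. In that list *Ifng*, *Il17a*, *Il22* and *Tbx21* had at most 10, 6, 15 and 8 counts in a *Zeb1* ∆M LPS library, so their values carry little precision. In *Zeb1* WT LPS they had at most 90, 109, 153 and 86. *Il18*, a partner of interleukin 12 in inducing interferon gamma, changed by -2.33 and -2.86 (SE 0.24 and 0.25, edgeR adjusted p = 6.5e-07 and 1.2e-07), and the interferon target *Cxcl10* by -5.16 and -6.76 (SE 0.72 and 0.78, edgeR adjusted p = 2.2e-05 and 3.1e-06). For *Zeb1* WT without replicate 1 of LPS + LPS, the counts were again 5 of 6 and 9 of 10, with *Stat4* at -2.82, *Il18* at -2.51 and *Cxcl10* at -7.15. *Cxcl9* turned from 0.11 to -2.41 and was called, and *Tbx21* at -2.34 no longer passed. Between genotypes, 0 of the 10 passed in LPS, LPS + LPS or Metformin + LPS, with medians of -0.96, -1.24 (-0.60 without that replicate) and -0.20 against 0.01, -0.02 and 0.03 over all genes. Of all genes, 0.208% were called higher and 0.937% lower in LPS, 0.461% and 0.216% in LPS + LPS, and 1.26% and 4.61% in Metformin + LPS.

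Among 21 transcription factors listed as known or possible regulators of the subunit genes, 11 fell and 1 rose from LPS to LPS + LPS in each genotype. Over all genes, 18% fell and 18.6% rose in *Zeb1* WT, and 16.9% fell and 15.8% rose in *Zeb1* ∆M. Paired values below are for *Zeb1* WT and then *Zeb1* ∆M. *Rel*, the NF-kappaB subunit needed for *Il12b* induction, changed by -1.42 and -0.89 (SE 0.18 and 0.18, edgeR adjusted p = 8.1e-06 and 0.001). *Nfil3*, a bZIP repressor of *Il12b*, changed by -1.58 and -1.32 (SE 0.23 and 0.22, edgeR adjusted p = 2.6e-05 and 0.00019). Without replicate 1 of *Zeb1* WT LPS + LPS the counts were 11 and 2, *Rel* was at -1.38 and *Nfil3* at -1.55. Over the Metformin + LPS step, *Rel* rose by 0.75 and 1.80 (SE 0.18 and 0.18, edgeR adjusted p = 0.0053 and 1.5e-05). *Rel* was not alone on the list in standing higher. *Maf* was at 20.4 to 62.6 CPM in *Zeb1* WT Metformin + LPS against 5.45 to 10.6 in LPS, and at 24.9 to 26.1 against 7.29 to 14.4 in *Zeb1* ∆M. In all, 3 of 21 factors rose and 5 fell in *Zeb1* WT, where 13% of all genes rose and 12.3% fell. In *Zeb1* ∆M 4 rose and 5 fell, beside 12.6% and 13.6% of all genes. *Irf8*, a partner of IRF1 at the *Il12b* promoter, fell with Metformin for *Zeb1* WT at -1.89 (SE 0.35, edgeR adjusted p = 9e-04). Between genotypes, 0 of 21 passed in LPS and in LPS + LPS, with or without replicate 1 of *Zeb1* WT in the latter. Few of all genes passed there, with 0.208% higher and 0.937% lower in LPS, and 0.461% and 0.216% in LPS + LPS. In Metformin + LPS, where 1.26% of all genes were called higher and 4.61% lower, 2 of the 21 were lower in *Zeb1* ∆M. These were *Batf3*, which also stands on the dendritic cell marker list, at -1.94 (SE 0.44, edgeR adjusted p = 0.014) and *Spi1*, the PU.1 gene, at -0.84 (SE 0.22, edgeR adjusted p = 0.028).

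In a list of 12 genes for LPS sensing and for the receptors of CD40 ligand and interferon gamma (*Cd40*, *Ifngr1* and *Ifngr2*), 6 fell and 2 rose from LPS to LPS + LPS in *Zeb1* WT, and 4 fell and 3 rose in *Zeb1* ∆M. The shares over all genes were 18% lower and 18.6% higher in *Zeb1* WT, and 16.9% and 15.8% in *Zeb1* ∆M. *Cd40*, the receptor through which T cells boost interleukin 12, changed by -2.62 and -3.02 (SE 0.29 and 0.29, edgeR adjusted p = 1.4e-06 and 4.6e-07), and the adaptor *Myd88* by -1.57 and -1.78 (SE 0.20 and 0.20, edgeR adjusted p = 8e-06 and 2.7e-06). The adaptor *Ticam2* rose by 2.38 and 2.59 (SE 0.38 and 0.38, edgeR adjusted p = 7.4e-05 and 4.8e-05). Leaving out replicate 1 of the *Zeb1* WT group gave 5 lower and 3 higher, with *Cd40* at -3.11, *Myd88* at -1.71 and *Ticam2* at 2.06. Of 4 tested secreted regulators, 2 were lower in *Zeb1* ∆M in LPS, *Il10*, which restrains *Il12b*, at -2.09 (SE 0.34, edgeR adjusted p = 0.0044) and *Il1b* at -1.92 (SE 0.36, edgeR adjusted p = 0.012). *Tnf* was lower in LPS + LPS at -1.07 (SE 0.19, edgeR adjusted p = 0.01) and in Metformin + LPS at -0.80 (SE 0.19, edgeR adjusted p = 0.016), where *Il1b* was lower as well. Over all genes, 0.937% were called lower between genotypes in LPS, 0.216% in LPS + LPS and 4.61% in Metformin + LPS. Without that replicate, 3 of the 4 were lower in LPS + LPS, *Tnf* at -0.90, *Il10* at -1.21 and *Il1b* at -1.80, in a fit that called 192 of 13947 genes lower.

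**Figure D5:**
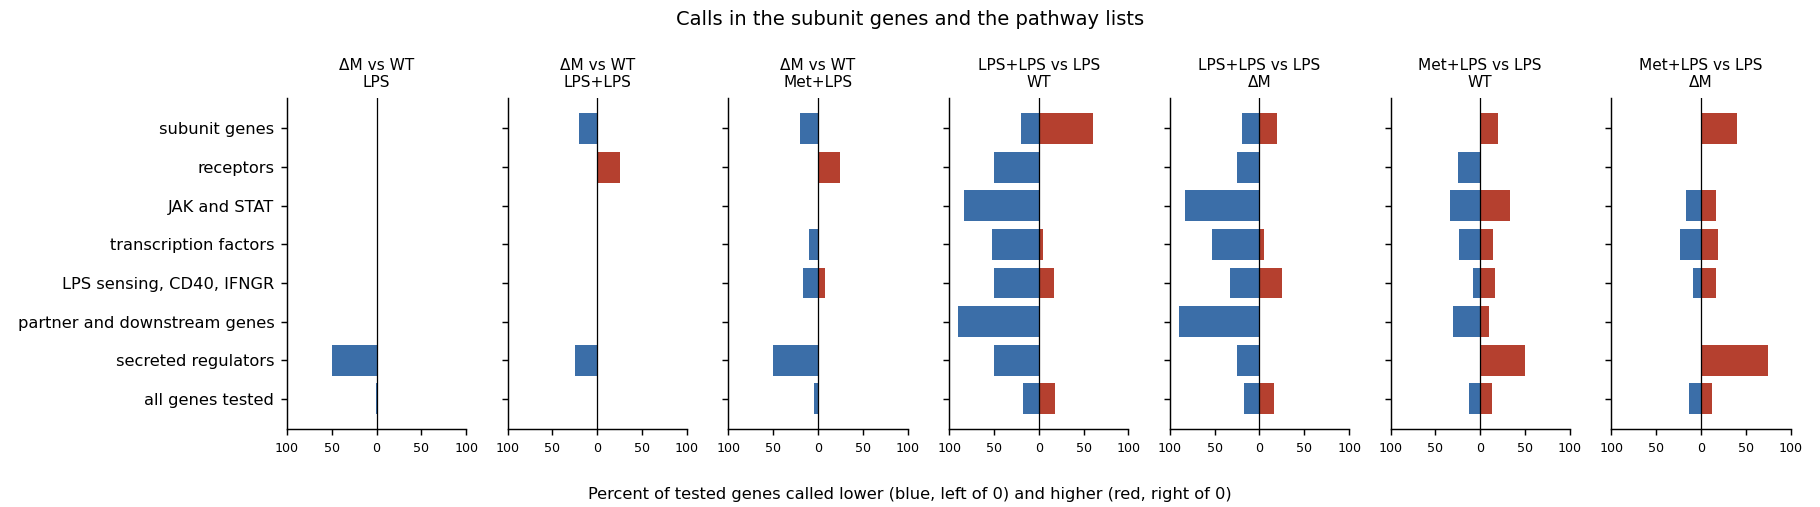
Percent of tested genes called lower (blue, left of 0) and higher (red, right of 0) in the subunit genes, 6 lists of receptor, signalling and regulator genes and all genes tested (rows), in the 7 comparisons between groups (panels). Lists hold 4 to 21 tested genes. In LPS + LPS against LPS, 5 of 6 JAK and STAT genes and 9 of 10 partner and downstream genes were called lower in each genotype, while 3 of 5 subunit genes were called higher in *Zeb1* WT and 1 of 5 in *Zeb1* ∆M.

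The genes whose pattern over the 18 libraries was nearest to each member were found by the root mean square difference of log2 CPM after centring each gene on its own mean. Nearest to *Il27* were *Cd40* (0.453), *Rnd1* (0.462), *Sp140* (0.465), *Dhx58* (0.465) and *Zup1* (0.469), small beside the 1.73 by which *Il27* itself varied. For *Il12b*, which varied by 1.04, they were *P2ry13* (0.48), *Mefv* (0.486), *Clasp2* (0.542), *Gabarapl2* (0.568) and *Selplg* (0.577). *Il12a*, which varied by 1.36, was matched by *Sgms2* (0.657), *Plbd1* (0.698), *Pfn1* (0.73), *Amdhd2* (0.77) and *Lgals3* (0.79). For *Ebi3* the nearest were *Impa1* (0.244), *Pdcd6* (0.249), *Atxn10* (0.252), *Brd7* (0.261) and *Hspbap1* (0.267), against its own 0.444. *Il23a*, with *Slc29a1* (0.838), *Alas1* (0.85), *Gde1* (0.865), *Ppp1r3b* (0.873) and *Abcg1* (0.885), varied by 1.3 itself. Between members the differences ran from 1.05 (*Il12a* and *Ebi3*, *Il12b* and *Ebi3*) to 2.55 (*Il12a* and *Il27*).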

How the data were processed

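RNA from 18 libraries of sorted mouse peritoneal macrophages (6 groups, n = 3) was sequenced with a stranded mRNA kit. The authors deposited a table of whole-number counts per gene, and the submitters' processing notes name STAR, RSEM, DESeq2 and GRCm38 without versions. Whether RSEM estimates were rounded, and whether strand was used in counting, is not given in the sources used here. A total of 0 columns of per-sample values were left out. Totals of 14053706 to 30570439 counts per library set the precision.

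From the counts, R 4.3.3 and edgeR 4.0.16 were used to filter by expression (13443 of 55573 genes kept), compute TMM factors and fit 1 quasi-likelihood model to all 18 libraries (12 residual degrees of freedom), with Benjamini-Hochberg adjustment at 0.05. Intervals are 95%. The 9 comparisons were genotype within each treatment, treatment against LPS within each genotype, and both interactions. The script was tested on simulated data.

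The members and gene lists were chosen with earlier results of these data known. Named genes were the 5 members, *Zeb1*, receptors, up to 4 called genes with the smallest adjusted p per list and comparison (with the value in the other genotype beside it), and the 5 nearest genes in pattern (mean log2 CPM of at least 3, prior count 2). Gene lengths came from GENCODE M21 and promoters from RefSeq. Alternatives were median-of-ratios factors, DESeq2 1.42.0, no count filter, only the groups compared, a replicate block, leaving out each library and, chosen after seeing the data, library totals without TMM factors and gene lists without replicate 1 of *Zeb1* WT LPS + LPS.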

Additional observations from a re-analysis of the deposited data

Results flagged for a closer look

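*Ebi3* in Metformin + LPS against LPS pointed one way in each genotype. In *Zeb1* ∆M its log2 fold change was -0.43, with all 3 Metformin + LPS libraries (93.6 to 124 CPM) below all 3 LPS libraries (132 to 154 CPM), and in *Zeb1* WT it was 0.42, with all 3 Metformin + LPS libraries (167 to 297 CPM) above all 3 LPS libraries (148 to 164 CPM). The difference between the genotypes, tested as the interaction, was -0.84 (SE 0.30, edgeR adjusted p = 0.24) and did not pass. With library totals alone the *Zeb1* WT value was -0.37 and the *Zeb1* ∆M value -0.65, so the opposite directions were not seen under that scaling.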

How the results depend on the processing

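*Il12b* lower in *Zeb1* ∆M LPS + LPS kept its call under each alternative tried except with only the groups compared, where 0 members were called (*Il12b* -1.76, edgeR adjusted p = 0.15). The *Il27* fall in LPS + LPS and the *Il12b* rise with Metformin kept their calls in both genotypes under each alternative. The number of members called in a direction changed as follows. DESeq2 called 1 member lower between genotypes in LPS (*Il27*) and 2 lower in LPS + LPS (*Il12a* added, -2.01, DESeq2 adjusted p = 0.045). With no count filter there were 1 lower in LPS (*Il27*, -1.36), 2 lower in LPS + LPS (*Il12a*, -1.95), 2 lower in Metformin + LPS (*Il12a*, -1.59) and 1 higher in the Metformin interaction (*Il27*, 1.41). For Metformin in *Zeb1* WT, 2 members were higher with median-of-ratios factors, DESeq2, no count filter and only the groups compared (*Il12a*, 1.76 to 1.81). With only the groups compared, 0 were lower between genotypes in Metformin + LPS (*Ebi3*, edgeR adjusted p = 0.055). Library totals alone gave 0 lower between genotypes in Metformin + LPS, 2 higher for LPS + LPS in *Zeb1* ∆M (*Ebi3*, 0.79), 2 lower for Metformin in *Zeb1* WT (*Il23a*, -3.51, and *Il27*, -0.85), 1 lower in *Zeb1* ∆M (*Ebi3*, -0.65) and 1 higher in the Metformin interaction (*Il27*, 1.95). That setting moved the all-gene median to 0.73 and 0.59 for LPS + LPS in *Zeb1* WT and *Zeb1* ∆M, and to -0.74 and -0.27 for Metformin, and the genes called higher and lower to 5337 and 1176, 4353 and 944, 466 and 5131, and 930 and 2343 (from 2504 and 2421, 2125 and 2272, 1744 and 1648, and 1693 and 1825). Between genotypes in Metformin + LPS it gave 3274 and 324 in place of 169 and 620. The cause of these changes was not tested.

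Leaving out 1 library at a time gave 1 to 2 members lower between genotypes in LPS + LPS, 0 to 1 lower in Metformin + LPS and 0 to 1 higher for LPS + LPS in *Zeb1* ∆M. Signs turned in members that were not called in those comparisons in the report. *Il27* between genotypes in Metformin + LPS was at -0.01 with median-of-ratios factors and with DESeq2, and -0.30 to 0.61 over libraries left out. *Il12b* there was at 0.33 with library totals. *Il27* for Metformin in *Zeb1* WT ran from -0.62 to 0.31, and *Ebi3* was at -0.37 with library totals. *Il23a* ran from -0.87 to 2.09 for Metformin in *Zeb1* ∆M (-0.16 with library totals), from -0.51 to 1.32 between genotypes in Metformin + LPS, from -1.35 to 0.10 in LPS + LPS, and from -0.54 to 1.01 for LPS + LPS in *Zeb1* WT.

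Genes called higher and lower between genotypes in LPS were 28 and 126, against 107 and 398 with DESeq2 and 274 and 464 with no filter. In LPS + LPS they were 62 and 29, against 173 and 198, 298 and 342, and 0 and 0 with only the groups compared. In Metformin + LPS they were 169 and 620, against 346 and 1011 with DESeq2, 299 and 914 with no filter and 107 and 398 with only the groups compared. In the interactions with LPS + LPS and with Metformin they were 0 and 0, and 11 and 10, against 72 and 2, and 128 and 172 with DESeq2, and 159 and 77, and 198 and 403 with no filter. Median-of-ratios factors gave 2 and 0 for LPS + LPS, and for Metformin only the groups compared gave 28 and 16 and library totals 120 and 11. Over libraries left out, the calls between genotypes were 7 to 116 higher and 48 to 116 lower in LPS, 23 to 205 higher and 5 to 192 lower in LPS + LPS (205 and 192 without replicate 1 of *Zeb1* WT) and 38 to 234 higher and 283 to 731 lower in Metformin + LPS. For Metformin in *Zeb1* ∆M they were 1203 to 1615 higher and 1044 to 1533 lower, and in the interactions 0 to 10 higher and 0 to 1 lower, and 3 to 20 higher and 0 to 50 lower. Deviations of same-numbered replicates from their group means were correlated at -0.089 to 0.15 over 45 pairs of libraries, so no strong pairing by number was seen. With 3 libraries per group this cannot exclude a shared day or batch. With a replicate block all 45 member results kept their direction and call (*Il12b* between genotypes in LPS + LPS at -1.70). Depth limits *Il23a*, at 0 to 69 counts per library.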
